A study of Homo sapiens with 12 samples.

Results

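Transcript levels of 10 genes that restrain signalling through RAS and the kinase ERK were followed in a breast cancer cell line after knockdown of E4F1 and after the drug gemcitabine. The genes are the phosphatases DUSP1, DUSP4, DUSP5, DUSP6, DUSP10 and PTPRR, the Sprouty genes SPRY2 and SPRY4, and the Sprouty-related genes SPRED1 and SPRED2. They were chosen by symbol for their known function, except that PTPRR was also chosen because it changed strongly with the drug. All 10 were present in each of the authors' 4 deposited comparison tables, which hold 23375 genes in at least 1 table and 20477 in all 4.

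The cells were SUM159, an established triple-negative line from a primary breast tumour. Every library carried a short hairpin RNA, either a control (shCTRL) or a hairpin against E4F1 (shE4F1), a zinc finger transcription factor. Cells were untreated (NT) or received 140 nM gemcitabine (GEM), a cytidine analogue that blocks DNA synthesis, for 24 h. Polyadenylated RNA was sequenced in 12 bulk libraries, 3 in each of the 4 groups. The labels name 1 hairpin against E4F1, and its cells still held E4F1 mRNA: its level was 0.503 of the control untreated and 0.532 under drug in the authors' deposited tables. Nothing in the labels states that the 3 libraries of 1 group were grown as separate cultures. The p-values below therefore measure only the spread between libraries, and that spread may be technical.

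Table means of normalized counts were 53240 to 70720 for VIM and 3407 to 4611 for ZEB1, both mesenchymal markers, in the authors' deposited tables. Of the luminal and receptor markers, ESR1 ranged from 4.95 to 13.1 and CDH1 from 5.21 to 9.23 in the authors' deposited tables, and PGR and EPCAM were in none of them. Other luminal and receptor markers were present in the authors' deposited tables: ERBB2 at 2496 to 2833, KRT8 at 2558 to 2748, KRT18 at 2330 to 2572, GATA3 at 402 to 588 and FOXA1 at 45.5 to 89.6. Of the blood cell markers, CD3E and HBB were in no table, and PTPRC and CD14 reached at most 144 and 12.7 in the authors' deposited tables. Of 5 endothelial markers, CDH5 was in no table, and KDR was the highest of the others, at 461 to 1801 in the authors' deposited tables.

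ERK is switched on by a relay from receptor tyrosine kinases through RAS, RAF and MEK, and it induces genes that then dampen the relay. The dual-specificity phosphatases remove the activating phosphates from MAP kinases. DUSP5 in the nucleus and DUSP6 in the cytoplasm act mainly on ERK, DUSP1 and DUSP4 are inducible nuclear enzymes with broader targets, and DUSP10 prefers the stress kinases p38 and JNK. PTPRR is a receptor-type tyrosine phosphatase with a kinase interaction motif through which it binds and inactivates ERK. Sprouty proteins interfere between receptors and RAS or RAF, and SPRED proteins bring neurofibromin, which turns RAS off, to the membrane. In mammary tumours of the triple-negative class, RAS and ERK signalling is often active.

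The promoters of 4 members are shown as examples of different responses. DUSP1 moved in opposite directions with drug and knockdown, the knockdown effect on DUSP10 changed sign between conditions, and PTPRR had the widest range. DUSP6 passed the test for knockdown and not for drug, as did SPRY2 and DUSP5, of which DUSP5 had no matched window. Each sequence is the 250 bases upstream of a RefSeq transcription start (GRCh38.p14), all on the minus strand, written 5′ to 3′, at chr5:172771196-172771445, chr12:89352502-89352751, chr1:221742090-221742339 and chr12:70754609-70754858 in the order shown. Capitals mark matches to the motifs described after the sequences.
DUSP1: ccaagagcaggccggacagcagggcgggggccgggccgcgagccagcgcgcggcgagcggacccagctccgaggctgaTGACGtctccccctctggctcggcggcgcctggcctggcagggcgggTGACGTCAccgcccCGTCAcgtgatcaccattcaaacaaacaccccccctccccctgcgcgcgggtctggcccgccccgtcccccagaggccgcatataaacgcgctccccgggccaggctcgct
DUSP6: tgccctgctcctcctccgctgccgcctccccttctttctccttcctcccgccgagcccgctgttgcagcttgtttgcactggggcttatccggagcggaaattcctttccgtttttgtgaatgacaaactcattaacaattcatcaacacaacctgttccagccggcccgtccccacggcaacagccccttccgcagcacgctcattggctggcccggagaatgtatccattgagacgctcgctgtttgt
DUSP10: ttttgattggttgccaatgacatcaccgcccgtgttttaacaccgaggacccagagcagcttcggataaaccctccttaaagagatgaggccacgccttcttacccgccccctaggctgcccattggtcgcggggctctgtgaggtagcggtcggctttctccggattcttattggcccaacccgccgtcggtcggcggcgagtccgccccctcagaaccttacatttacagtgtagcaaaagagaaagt
PTPRR: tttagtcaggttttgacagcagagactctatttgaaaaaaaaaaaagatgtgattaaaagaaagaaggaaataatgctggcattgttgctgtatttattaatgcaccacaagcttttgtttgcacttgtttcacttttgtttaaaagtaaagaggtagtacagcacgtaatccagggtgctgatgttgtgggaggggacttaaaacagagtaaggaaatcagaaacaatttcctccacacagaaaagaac

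RefSeq windows were matched for 8 of the 10 members, 14 windows in all, and none is shown for DUSP4 and DUSP5. Each window was searched on both strands for 7 motifs: the cyclic AMP response element TGACGTCA, its partial word TGACG (which lies within it), the AP-1 site TGANTCA, the ETS word CCGGAAG, TGACGTAA (which also holds TGACG), searched as a core word of the site known for E4F1, the NF-kB site and the CArG box. DUSP1 held the full TGACGTCA at position -125 from its start, a word present in 1.65% of 35114 RefSeq windows of the same length. It also held TGACG or its reverse complement at -172, -125, -122 and -111, of which -125 and -122 are the arms of the full element. TGACG was found in 21.2% of all windows, and among the other members it matched at -190 in SPRY2 and at -68 in SPRY4. The AP-1 site (6.57% of all windows), the NF-kB site (5.21%), the CArG box (1.16%), the ETS word (8.52%) and TGACGTAA (0.370%) were found in none of the 14 windows. For E4F1 only the word TGACGTAA was searched. Whether a window, such as that of DUSP1 with TGACGTCA, holds another form of the E4F1 site was not tested. A match is a run of letters and not evidence of binding, and no match says only that the letters are not in these windows. PTPRR was the most AT-rich of those shown, with 35.6% G and C against 74.4% in DUSP1, 57.2% in DUSP6, 56.4% in DUSP10 and a median of 58.0% over all windows. Windows not shown held 28.0% and 44.8% in PTPRR and 55.2% in DUSP10. The RefSeq start of DUSP1 is also the gene's first base in GENCODE 29, while those shown for DUSP6, DUSP10 and PTPRR lie inside the annotated genes. The PTPRR window ends at 70754858, far from the gene's first base at 70920843, which no PTPRR window reached. Its base content is thus that of sequence within the gene, and which starts the cells used was not analysed here.

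Group levels were solved from the table means of normalized counts in the authors' deposited tables. These tables were normalized separately, so the means were first put on 1 scale, and the levels carry no SD because they are not values per library. Per kilobase of exon, DUSP1 was the most abundant member in untreated shCTRL cells, with a level of 3373 normalized counts per kilobase. DUSP5 (693 per kilobase) and SPRED1 (602) followed, then SPRY2 (380) and SPRED2 (368), SPRY4 (255) and DUSP10 (228). DUSP6 (103 per kilobase) and DUSP4 (102) were lower, and PTPRR was lowest at 5.88 per kilobase. Without a spread per library, neighbours in this order cannot be told apart. Under gemcitabine the level of PTPRR in shCTRL cells was 171 per kilobase, above that of DUSP6 (107) and close to that of DUSP4 (176). In bulk RNA, fewer cells with a transcript and less of it per cell cannot be told apart.

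**Figure D1:**
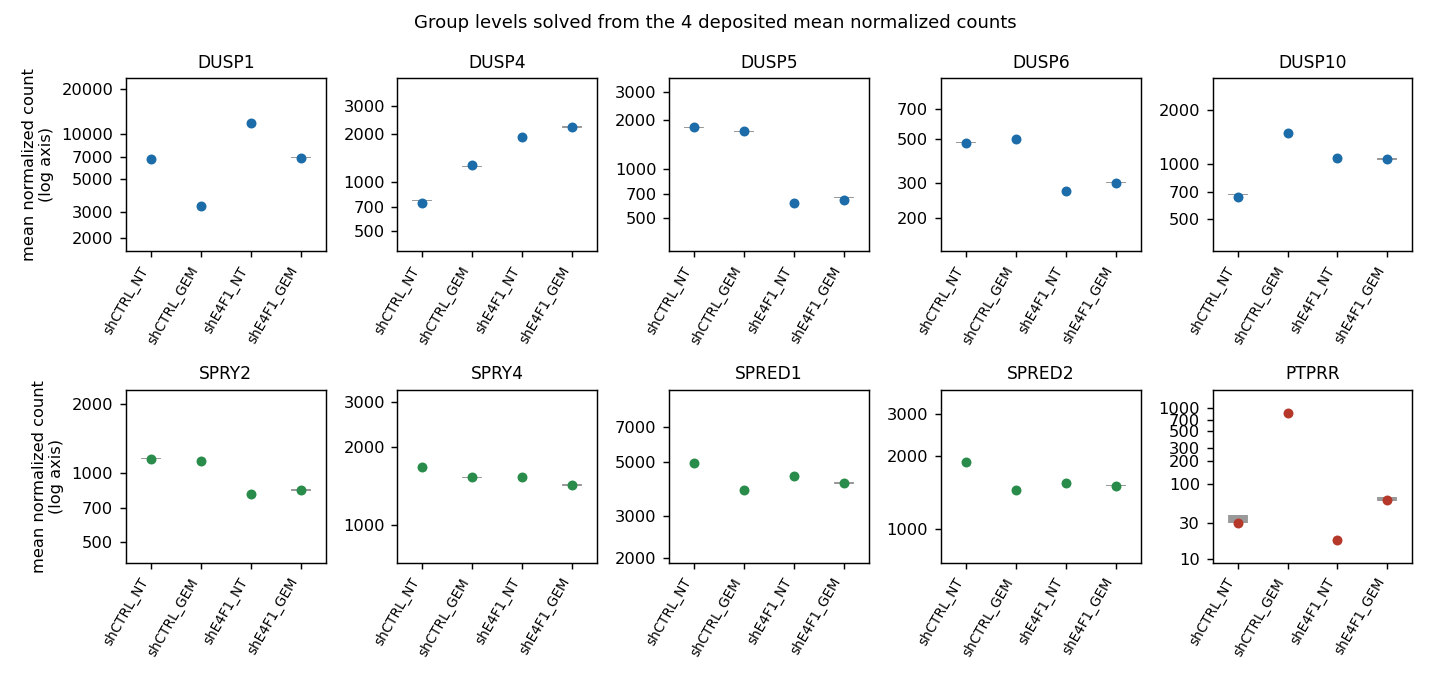
Mean normalized count (log axis) of each gene in the 4 groups, solved from the means of the authors' deposited tables and put on 1 scale. Grey bars give the range of values obtained within single tables, by dividing the mean with the deposited fold, and are hidden by the points where narrow. DUSP5 and SPRY2 are lower in both shE4F1 groups, and PTPRR stands high in shCTRL_GEM alone, at 877 against 18.0 to 61.1 in the other groups.

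Knockdown in untreated cells raised 3 members (DUSP1, DUSP4, DUSP10) and lowered 3 (DUSP5, DUSP6, SPRY2), of 10 tested. A gene is said to have risen or fallen where its adjusted p was under 0.05 (Wald test of the authors' DESeq2, Benjamini-Hochberg adjustment). Over the 19472 genes of this comparison, 17.5% rose and 19.3% fell. The 3 of 10 in each direction are few genes and were not tested against those shares, which are not matched for expression level. Under gemcitabine, 2 members (DUSP1, DUSP4) were higher with knockdown and 5 (DUSP5, DUSP6, DUSP10, SPRY2, PTPRR) lower, against 20.3% of 22433 genes higher and 20.8% lower. Without PTPRR, whose level in these same drug-treated control libraries led to its choice, 6 of 9 were called, 2 higher and 4 lower. The median log2 change over the 10 members, PTPRR among them, was -0.26 untreated and -0.24 under drug, against -0.01 and 0.00 over all genes. Without PTPRR the median of the 9 under drug was the value of SPRY4, -0.09.

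Gemcitabine in shCTRL cells raised 2 of the 9 members tested (DUSP4, DUSP10) and lowered 3 (DUSP1, SPRED1, SPRED2), against 14.5% of 20002 genes raised and 13.5% lowered. The median over the 9 was -0.08, against -0.02 over all genes. PTPRR was not tested there because that change chose it. In shE4F1 cells, where the drug effect had to be derived by subtracting 1 deposited table from another, it lowered 1 of 9 members (DUSP1) and raised 0, against 0.185% of genes lowered and 0.925% raised. The standard error of that derived effect is too large, since the untreated shCTRL libraries enter it 2 times. Its median over all genes was 0.33, against 0.21 for the drug effect in shCTRL cells, and its part in the low counts was not tested. At an unadjusted p under 0.05 the same count held, 1 member lower and 0 higher, against 2.2% and 4.2% of all genes. With both changes together, shE4F1 cells under drug against untreated shCTRL cells, 2 of 9 members were higher (DUSP4, DUSP10) and 3 lower (DUSP5, DUSP6, SPRY2), against 15.8% of genes higher and 16.3% lower.

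**Figure D2:**
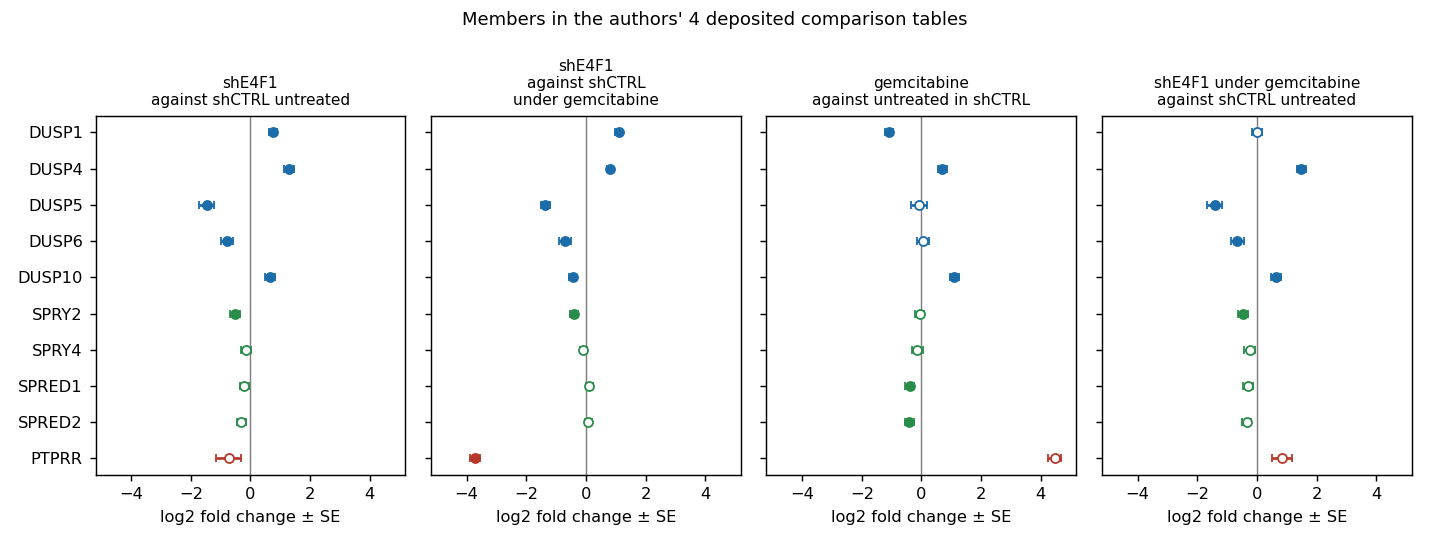
Log2 fold change ± SE of each member in the authors' 4 deposited tables. Filled points passed an adjusted p of 0.05, and open points did not or, for PTPRR in the drug comparisons, were not tested. The filled PTPRR point is not independent of the gene's choice, which used the same drug-treated control libraries. DUSP4 lies to the right and DUSP5 to the left in the 3 panels that involve knockdown, and PTPRR lies at -3.72 in the panel for knockdown under drug and at 4.47 in the panel for drug alone.

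DUSP1, an immediate early phosphatase of ERK, p38 and JNK, had a level of 6810 normalized counts in untreated shCTRL cells and 3261 under drug. In shE4F1 cells its level was 11738 untreated and 6923 under drug. The untreated knockdown group was highest and the drug-treated control group lowest, with the other 2 groups nearly level. Gemcitabine lowered DUSP1 in shCTRL cells, where it fell by 1.08 ± 0.13 (log2, SE) in the authors' deposited table (adjusted p = 2.85e-14). In shE4F1 cells it fell by 0.76 ± 0.20 (log2, SE), derived from the authors' deposited tables (adjusted p = 0.0232). The call in shE4F1 cells was lost when the effect was taken from the other tables (-0.73, adjusted p = 0.0981). Knockdown raised DUSP1 by 0.76 ± 0.13 untreated (1.69-fold, adjusted p = 6.90e-08) in the authors' deposited table. Under drug the knockdown effect was 1.11 ± 0.12 (2.15-fold, adjusted p = 1.30e-19) in the authors' deposited table. With both changes together DUSP1 stood at 0.00 ± 0.16 against untreated shCTRL cells (adjusted p = 0.999) in the authors' deposited table. The 2 knockdown effects differed by 0.35 ± 0.18, which did not pass the test (adjusted p = 0.287).

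DUSP4, the inducible nuclear enzyme, had levels of 742 in untreated shCTRL cells, 1278 with drug, 1914 with knockdown and 2217 with both. It was the member with the highest fold increase on knockdown, 1.29 ± 0.15 untreated (2.45-fold, adjusted p = 2.30e-15) in the authors' deposited table. Under drug the increase was 0.82 ± 0.10 (1.76-fold, adjusted p = 6.72e-14) in the authors' deposited table. Gemcitabine alone raised DUSP4 by 0.70 ± 0.15 (1.63-fold, adjusted p = 4.84e-05) in the authors' deposited table. In shE4F1 cells the derived drug effect was 0.20 ± 0.22 (adjusted p = 1.00), and the difference between the knockdown effects was -0.47 ± 0.19 (adjusted p = 0.120). Both changes together gave 1.49 ± 0.16 (2.82-fold, adjusted p = 1.99e-18) in the authors' deposited table. DUSP1 and DUSP4 thus shared a rise on knockdown but had opposite responses to the drug in control cells.

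DUSP5, the nuclear ERK phosphatase, had levels of 1813 and 1711 in untreated and drug-treated shCTRL cells, and of 618 and 644 in the matching shE4F1 cells. The knockdown groups lay together, well below both control groups. Knockdown lowered it to 0.359 of control untreated (-1.48 ± 0.25, adjusted p = 7.95e-08) in the authors' deposited table. Under drug the fraction was 0.389 (-1.36 ± 0.16, adjusted p = 4.88e-17) in the authors' deposited table. The drug effect in shCTRL cells was -0.08 ± 0.26 (adjusted p = 0.852) in the authors' deposited table, and the difference between the knockdown effects was 0.11 ± 0.30 (adjusted p = 0.922).

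DUSP6, the cytoplasmic ERK phosphatase, was also lower in both knockdown groups: 477 and 498 in untreated and drug-treated shCTRL cells against 274 and 299 in shE4F1 cells. Knockdown lowered it to 0.579 of control untreated (-0.79 ± 0.20, adjusted p = 0.000554) in the authors' deposited table. Under drug it was 0.621 of control (-0.69 ± 0.20, adjusted p = 0.00237) in the authors' deposited table, a call lost when the contrast was rebuilt from the other tables (adjusted p = 0.0937). The drug effect in shCTRL cells was 0.04 ± 0.20 (adjusted p = 0.908) in the authors' deposited table. Both ERK-specific members were therefore lower with knockdown in either condition, while neither passed the test for the drug.

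DUSP10, the p38 and JNK phosphatase, was the member whose knockdown effect differed between conditions. Its level was 663 in untreated shCTRL cells, 1483 under drug, and 1082 and 1074 in untreated and drug-treated shE4F1 cells. The control cells thus gave the lowest and the highest level, and the knockdown cells stood between them in both conditions. Gemcitabine raised it in shCTRL cells by 1.10 ± 0.15 (2.14-fold, adjusted p = 5.17e-12) in the authors' deposited table. The derived drug effect in shE4F1 cells was -0.01 ± 0.23 (adjusted p = 1.00). Knockdown raised DUSP10 untreated by 0.66 ± 0.16 (1.58-fold, adjusted p = 0.000255) in the authors' deposited table. Under drug it was lower with knockdown, -0.44 ± 0.11 (0.735 of control, adjusted p = 0.000292), in the authors' deposited table, and that call was lost from the other tables (-0.45, adjusted p = 0.153).

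The difference between those knockdown effects, which share no library, was -1.10 ± 0.20 for DUSP10 (adjusted p = 4.62e-06, normal test on the 2 deposited tables, Benjamini-Hochberg adjustment). Under the alternatives run, the adjusted p ranged from 5.23e-07 to 0.0127. DUSP10 was the 1 member of 9 tested whose knockdown effect differed between conditions at an adjusted p under 0.05, in the negative direction, against 2.63% of genes in that direction and 2.81% in the positive one. At an unadjusted p under 0.05 there were 2 in each direction, DUSP4 and DUSP10 lower and DUSP1 and SPRED2 higher under drug, against 7.1% of all genes lower and 9.49% higher.

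**Figure D3:**
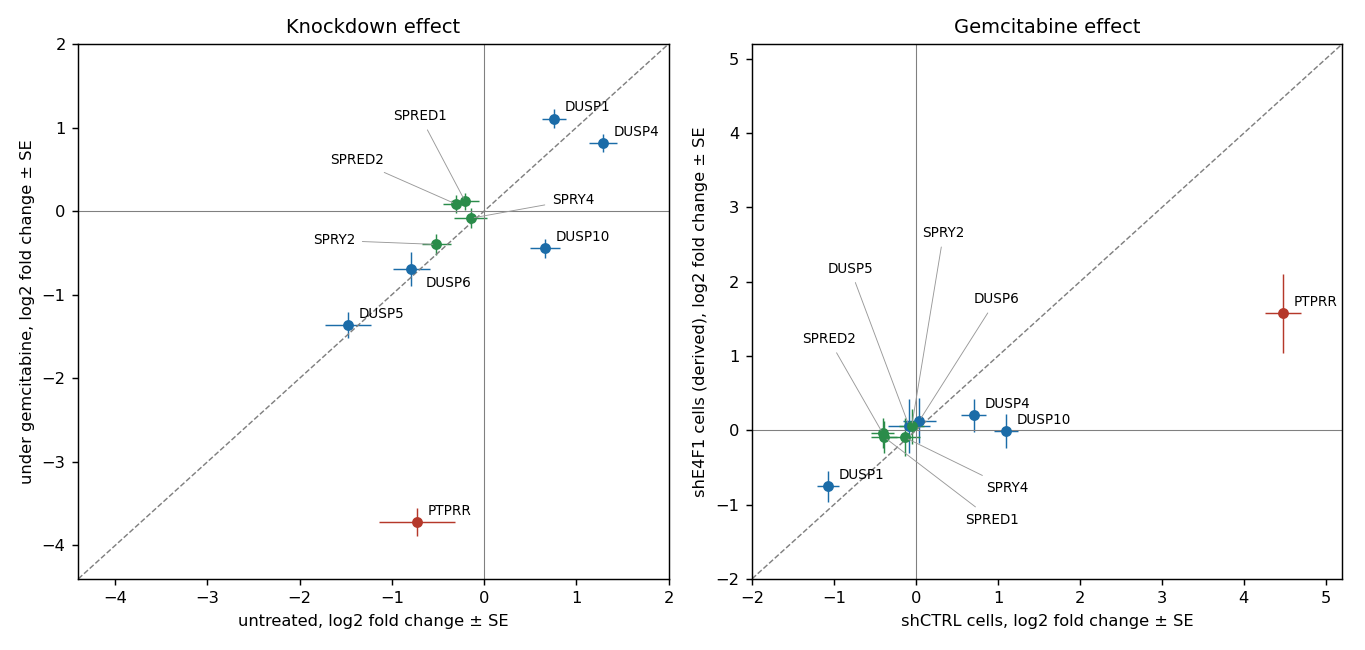
Left, knockdown effect under gemcitabine against knockdown effect untreated, in log2 fold change ± SE. Right, drug effect in shE4F1 cells (derived) against drug effect in shCTRL cells. The axes of the left panel share no library, and those of the right panel both use the untreated shCTRL libraries. The dashed line marks equal effects. DUSP10 lies at 0.66 and -0.44 in the left panel, and PTPRR at 4.47 and 1.57 in the right.

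SPRY2, a Sprouty inhibitor of receptor tyrosine kinase signalling, had levels of 1154 and 1126 in untreated and drug-treated shCTRL cells and 811 and 840 in shE4F1 cells. Knockdown lowered it untreated to 0.699 of control (-0.52 ± 0.16, adjusted p = 0.00392) in the authors' deposited table. Under drug it was 0.759 of control (-0.40 ± 0.13, adjusted p = 0.00670) in the authors' deposited table, and 0.248 was the adjusted p from the other tables. SPRY2 thus followed the direction of DUSP5 and DUSP6, with a smaller change. SPRY4, the other Sprouty gene measured here, had levels of 1427 to 1672 in the 4 groups. None of its changes passed the test, from -0.24 ± 0.18 with both changes together to -0.09 ± 0.12 for knockdown under drug, in the authors' deposited tables.

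SPRED1, mutated in Legius syndrome, had its highest level in untreated shCTRL cells, 4972, against 3826 with drug, 4356 with knockdown and 4089 with both. Gemcitabine lowered it to 0.763 in shCTRL cells (-0.39 ± 0.16, adjusted p = 0.0445) in the authors' deposited table. SPRED2, its paralogue, had levels of 1895, 1442, 1551 and 1508 in the same order of groups. The drug lowered it to 0.755 in shCTRL cells (-0.41 ± 0.14, adjusted p = 0.0206) in the authors' deposited table. Both calls were lost when the table was centred on its median gene (adjusted p = 0.104 for SPRED1 and 0.0577 for SPRED2) and when taken from the other tables (0.136 and 0.106). Neither gene passed the test for knockdown: the untreated values were -0.21 ± 0.15 for SPRED1 and -0.30 ± 0.14 for SPRED2 in the authors' deposited table (adjusted p = 0.298 and 0.0706).

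PTPRR lies on chr12:70638073-70920843 (GRCh38, GENCODE 29, minus strand) and spans 283 kb. Its level was 30.2 normalized counts in untreated shCTRL cells and 877 under gemcitabine. In shE4F1 cells it was 18.0 untreated and 61.1 under drug. The drug-treated control group stood far above the other 3. For untreated shCTRL cells, dividing the mean of a single comparison by its deposited fold gave 30.1 to 39.1, so this range depends on the fitted folds. The drug difference in shCTRL cells, by which the gene was chosen, was 4.47 ± 0.22 (log2, SE) or 22.2-fold in the authors' deposited table, the 6th highest of 20002 genes. This fold is below the ratio of the levels. Whether the authors' fit drew the log2 values of low-count genes toward 0 was not tested. Differences between tables, for PTPRR as for other low-count genes, would carry any such effect. The drug difference in shE4F1 cells was 1.57 ± 0.53 or 2.98-fold, derived from the authors' deposited tables. With both changes together it was 0.84 ± 0.33 (1.80-fold) in the authors' deposited table.

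The knockdown comparison in untreated cells, which shares only the untreated control libraries with the choice of the gene, gave -0.73 ± 0.41 for PTPRR in the authors' deposited table and did not pass the test (adjusted p = 0.163). At a mean of 20.9 normalized counts its SE was the widest of the 10 members there. Under drug PTPRR was 13.2-fold lower with knockdown (-3.72 ± 0.17, adjusted p = 5.46e-108) in the authors' deposited table, 4th from the lowest of 22433 genes. That comparison shares its control libraries with the one that chose the gene, which favours a lower value here. Its p, rank and call are therefore not independent of the choice and are given as a description. The knockdown effect under drug minus that in untreated cells was -2.99 ± 0.45, given as a description.

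Around PTPRR, 9 other annotated genes start within 500 kb, and 2 of them were in the tables. PTPRB, a receptor-type phosphatase of blood vessel cells, is the next gene on the same strand and begins 632 bases beyond the end of PTPRR. It was a low transcript, with table means of 15.9 to 39.0 in the authors' deposited tables. PTPRB rose with gemcitabine in shCTRL cells by 1.33 ± 0.32 (adjusted p = 0.000358) in the authors' deposited table. Under drug it was lower with knockdown, -1.19 ± 0.32 (adjusted p = 0.000883), in the authors' deposited table. In untreated cells its knockdown effect was -0.06 ± 0.43 (adjusted p = 0.943) in the authors' deposited table. The calls thus had the direction of PTPRR's changes, and the part that reads running past the end of PTPRR have in them was not tested. The other gene, the antisense transcript AC025569.1, had means of 4.81 to 8.04 and passed no test in the authors' deposited tables.

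The genes most like PTPRR over the 3 other groups, each as log2 against untreated shCTRL cells, were sought among 12448 genes with a mean of at least 50 in each table. These were CFAP58 (Euclidean distance 0.61), the cytokine IL6 (1.13), the interleukin 7 receptor IL7R (1.20), the transporter SLC16A12 (1.58) and the laminin chain LAMB3 (1.66). CFAP58 differed from untreated shCTRL cells by 4.70 with drug, -0.69 with knockdown and 1.41 with both in the authors' deposited tables. IL6 differed by 4.12, -1.53 and 1.57 in the authors' deposited tables. PTPRR itself was under the mean of 50, at 20.9 for knockdown untreated and 42.5 with both changes together. Genes with means as low as its own were thus left out of the search. For the other members the nearest genes lay far closer, at distances of 0.02 to 0.12. They were ANGPT1 and PTPRG for DUSP1, SMCR8 and ANKRD33B for DUSP4, TTL and SMKR1 for DUSP5, NUB1 and RP11-421L21.3 for DUSP6, and RP11-90C4.1 and DUSP2 for DUSP10. For the rest they were METTL17 (SPRY2), ERH and WDR6 (SPRY4), MAP3K7 and TMCO6 (SPRED1), and GALNT14 and DBN1 (SPRED2).

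Of 20 other feedback genes of ERK and the MAP kinases, 16 were tested in the knockdown comparisons. Untreated, 7 were higher with knockdown and 1 lower (median log2 0.43), and under drug 11 were higher and 1 lower (median 0.51). Over all genes, 17.5% were higher and 19.3% lower untreated, and 20.3% and 20.8% under drug. The phosphatase DUSP22 was higher by 1.31 ± 0.15 untreated and 1.27 ± 0.13 under drug in the authors' deposited tables. RASA2, which speeds the switching off of RAS, was higher by 0.99 ± 0.14 and 1.07 ± 0.12 in the authors' deposited tables. The gene that was lower was LZTR1, an adaptor for RAS breakdown, at -0.57 ± 0.16 and -0.46 ± 0.12 in the authors' deposited tables. With gemcitabine in shCTRL cells 4 of 16 rose and 6 fell (median -0.16), against 14.5% and 13.5% of all genes. DUSP8 rose by 1.23 ± 0.24 and DUSP2 by 1.04 ± 0.24, while ERRFI1, an inhibitor of the EGF receptor, stood at -1.61 ± 0.15 and the RAS inactivator NF1 at -0.73 ± 0.15 in the authors' deposited table.

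The 25 genes of the cascade itself were all tested. Knockdown raised 3 and lowered 5 untreated (median 0.04), and under drug 12 were higher and 5 lower (median 0.19). The untreated counts and the lower count under drug were near the shares of all genes (17.5% higher and 19.3% lower untreated, 20.8% lower under drug), while 20.3% of all genes were higher under drug. The scaffold KSR1 stood at -2.01 ± 0.20 and -2.16 ± 0.14 in the authors' deposited tables. ARAF, a RAF kinase, stood at -1.66 ± 0.16 untreated, and LAMTOR3, a MEK scaffold, at -1.86 ± 0.11 under drug, in the authors' deposited tables. Higher genes were GAB1 (0.59 ± 0.15) and BRAF (0.51 ± 0.15) untreated, and RPS6KA2 (0.69 ± 0.15) and PTPN11 (0.54 ± 0.09) under drug, in the authors' deposited tables. Gemcitabine in shCTRL cells raised 3 and lowered 6 (median -0.10), against 14.5% and 13.5% of all genes, with KSR1 at 0.70 ± 0.17 and the ERK-activated kinase RPS6KA2 at -1.30 ± 0.17 in the authors' deposited table.

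Of the transcripts known to respond to ERK, 8 of 20 were lower and 3 higher with knockdown untreated (median -0.15), and 14 of 22 were lower and 3 higher under drug (median -0.75). All genes gave 19.3% lower and 17.5% higher untreated, and 20.8% and 20.3% under drug, so the counts of higher transcripts were near or below those shares. The ETS factor ETV5 stood at -1.82 ± 0.18 and the cytokine LIF at -1.76 ± 0.30 untreated in the authors' deposited table. Under drug the EGF receptor ligand HBEGF stood at -2.99 ± 0.14 and the early factor EGR3 at -2.41 ± 0.48 in the authors' deposited table. The ephrin receptor EPHA4 was higher in both, by 1.20 ± 0.15 and 1.13 ± 0.12 in the authors' deposited tables. With gemcitabine in shCTRL cells 12 of 22 rose and 4 fell (median 0.51), against 14.5% and 13.5% of all genes. EGR2 rose by 3.44 ± 0.36 and HBEGF by 2.58 ± 0.17, while ETV5 stood at -0.91 ± 0.18 and ETV1 at -0.68 ± 0.17, in the authors' deposited table. The comparisons under drug and with drug share the drug-treated control libraries, so the opposite signs of these medians are not independent.

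**Figure D4:**
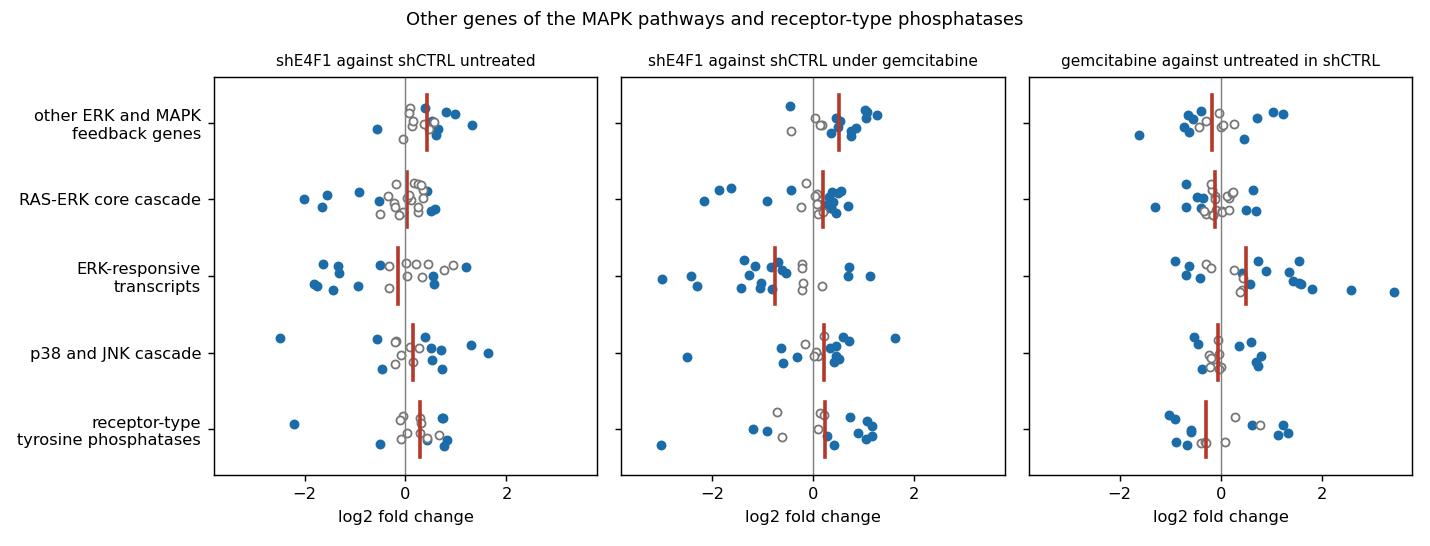
Log2 fold changes of the genes of 5 lists, in 3 comparisons, from the authors' deposited tables. Points are genes, filled where the adjusted p was under 0.05, and red lines are list medians. The ERK-responsive transcripts have a median of -0.75 for knockdown under drug and of 0.51 for the drug in control cells.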

How the data were processed

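Values came from 4 comparison tables deposited by the authors, each over 6 libraries. Per the file headers they hold mean normalized counts (a signal), log2 fold changes with SE, a Wald score, and p-values with adjusted p-values, from the authors' DESeq2. The submitters' processing notes name TopHat2 2.1.1 with Bowtie2 2.2.9, the build GRCh38.p7, HTSeq 0.9.0, R 3.4.0 with DESeq2 1.14.1, and the read tools FastQC and bcl2fastq. Libraries were stranded and poly(A)-selected, per the labels' protocols. The design formula, filters, strand setting and annotation release were not given in the sources used here.

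A count table has 12 columns whose names match no label. None was used, so precision rests on the SE: depth per library is unknown here.

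Differences of tables gave the drug effect in shE4F1 cells and the interaction (summed variances, two-sided normal test, Benjamini-Hochberg over all genes with both values), with scipy 1.17.1, pandas 2.3.3 and numpy 2.4.6, tested on simulated data. The simulated noise was independent between comparisons, so the untreated shCTRL libraries shared in the drug effect in shE4F1 cells were not simulated. Group levels were to be solved from the means as deposited. Those gave ratios off the deposited log2 by up to 0.24 (median over 6198 genes), so the means were rescaled first, by 0.02, 0.11 and 0.20 (log2), which left 0.02. Ranges within single tables were added after seeing the data. All members were named, plus up to 2 called genes per list and direction with the largest change, genes starting within 500 kb of PTPRR, and the nearest patterns. Members, the 5 lists and the motifs were chosen with earlier results of these data known. Gene positions are from GENCODE 29. Some genes that these rules name are not reported here.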

Additional observations from a re-analysis of the deposited data

Results flagged for a closer look

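The knockdown effect on DUSP10 differed between conditions by -1.10 ± 0.20 (log2, SE; adjusted p = 4.62e-06 in a normal test on the difference of the authors' deposited tables, Benjamini-Hochberg adjustment). It was raised by knockdown in untreated cells (0.66) and lowered under gemcitabine (-0.44), in tables that share no library. The part that single libraries have in this was not tested.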

How the results depend on the processing

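Over the 10 genes and 6 comparisons, 249 values were recomputed under the alternatives: 224 kept their call or lack of one, 24 of the called ones lost the call, 1 gained it and 0 calls reversed. The sign of an uncalled value could change: SPRY2 for the drug in shCTRL cells went from -0.05 to 0.01 when centred on the median gene. The 224 include PTPRR values that had no test. They also include uncalled genes under a required change of at least 1 (log2), which could not add a call. The total is thus not a measure of how robust the calls were. A required change of at least 1 (log2) left 2 members called of 6 for knockdown untreated, 3 of 7 for knockdown under drug, 2 of 5 for the drug in shCTRL cells, 2 of 5 for both changes together and 0 of 1 for the drug in shE4F1 cells. Centring on the median gene left 3 of 5 for the drug in shCTRL cells. It also ended the SPRY2 call with both changes together (adjusted p = 0.0646 in place of 0.0309). Taking the contrast from the other tables left 4 of 7 for knockdown under drug, 3 of 5 for the drug in shCTRL cells and 0 of 1 for the drug in shE4F1 cells, and its SE counts shared libraries more than once. SPRED2 gained a call with both changes together when p-values were adjusted over genes with a mean of at least 50 (adjusted p = 0.0433 in place of 0.0565). Without putting the tables on 1 scale, 7 of 10 members kept their highest group.

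The 12 count columns match no sample label, so count tests on single libraries, leaving out a replicate and the depth per library were not run. No paired analysis was possible because those columns carry no label. PTPRR had a mean of 20.9 in untreated cells and the widest SE there, 0.41.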

Other observations

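The kinases p38 and JNK are targets of DUSP10 and DUSP1. Of 17 genes of their cascades, knockdown raised 7 and lowered 3 untreated (median log2 0.16), and under drug 8 were higher and 4 lower (median 0.22). The lower counts were near the 19.3% and 20.8% of all genes that were lower, and 17.5% and 20.3% of all genes were higher. The kinase MAPKAPK3, which p38 activates, stood at -2.49 ± 0.17 and -2.50 ± 0.13 in the authors' deposited tables. The neuronal JNK gene MAPK10 was higher by 1.63 ± 0.28 and 1.62 ± 0.24 in the authors' deposited tables. Gemcitabine in shCTRL cells raised 5 and lowered 3 (median -0.05), against 14.5% and 13.5% of all genes, with MAP3K5 at 0.80 ± 0.26 and the p38 kinase MAPK14 at -0.52 ± 0.15 in the authors' deposited table.

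Of 16 receptor-type tyrosine phosphatases tested beside PTPRR, knockdown raised 5 and lowered 2 untreated (median 0.29), and under drug 8 were higher and 3 lower (median 0.24). Of all genes, 17.5% and 20.3% were higher and 19.3% and 20.8% lower, so the lower counts were at or below those shares. PTPRU was higher by 0.77 ± 0.16 and 1.17 ± 0.12, and PTPRC, the leukocyte phosphatase CD45, stood at -2.21 ± 0.40 and -3.00 ± 0.27, in the authors' deposited tables. Gemcitabine in shCTRL cells raised 4 and lowered 6 (median -0.30), against 14.5% and 13.5% of all genes, with PTPRQ at 1.23 ± 0.17 and PTPRG at -1.03 ± 0.15 in the authors' deposited table.

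The test of the difference between the knockdown effects called genes in each list: 4 of 21 ERK-responsive transcripts had a lower effect under drug and 2 a higher one, and each other list had 1 or 2 calls. Of all genes 2.63% had a lower effect and 2.81% a higher one, so 1 call in a list of this size is near the background. EGR1 (-1.98 ± 0.64, adjusted p = 0.0381) and EGR2 (-1.99 ± 0.59, adjusted p = 0.0186) had a lower knockdown effect under drug. EGR2 was a low transcript, with a mean of 7.97 normalized counts in the untreated comparison. ETV5 (1.12 ± 0.21, adjusted p = 1.91e-05), ETV4 (0.78 ± 0.22, adjusted p = 0.0103), ERRFI1 (0.88 ± 0.21, adjusted p = 0.00145) and RPS6KA2 (0.82 ± 0.21, adjusted p = 0.00473) had a higher one, by sign. For ETV5 and ETV4 this was a smaller fall with knockdown, from -1.82 untreated to -0.70 under drug and from -1.32 to -0.53. ERRFI1 went from 0.15 to 1.03 and RPS6KA2 from -0.13 to 0.69, in the authors' deposited tables. MAP2K3 (-0.79 ± 0.21, adjusted p = 0.00589), PTPRQ (-1.44 ± 0.42, adjusted p = 0.0178) and PTPRA (0.62 ± 0.18, adjusted p = 0.0155) completed the calls named by the rule. These p-values come from a normal test on the difference of the authors' deposited tables with Benjamini-Hochberg adjustment. The derived drug effect in shE4F1 cells, which called 0.925% of all genes higher, called 2 listed genes, LIF (2.02 ± 0.40, adjusted p = 0.000160) and HBEGF (1.06 ± 0.30, adjusted p = 0.0326).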
